A study of Mus musculus with 10 samples.

Results

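Among the 11094 RBPJ binding sites mapped in cultured mouse brain pericytes, 31 lay at 10 genes that encode the ligands, receptors and latency proteins of the TGF-beta pathway. The genes were the ligands Tgfb1, Tgfb2 and Tgfb3, the receptors Tgfbr1 and Tgfbr2, the co-receptors Tgfbr3 and Eng, and the latent TGF-beta binding proteins Ltbp1, Ltbp2 and Ltbp3, out of 21938 protein-coding genes. A peak was counted for a gene when its centre lay in the gene body or in the regulatory domain of the gene. That domain ran from 5 kb upstream to 1 kb downstream of the transcription start site (TSS) and was extended to the same basal domains of the neighbouring genes by at most 1 Mb. The sites come from chromatin immunoprecipitation followed by sequencing (ChIP-seq) with an antibody against RBPJ in untreated RD1 cells, which the labels call brain pericytes. The study describes the cells of its ChIP-seq as cultured primary brain pericytes, and its primary cultures as isolated from Rbpj lox/lox mice, in which Rbpj is flanked by recombination sites but intact until Cre is added. The series has 10 samples in 5 groups of 2 replicates (RBPJ, H3K4me1, H3K4me3, histone H3 and input), of which the 2 RBPJ samples had peak lists and the other 8 were not analysed here. Both RBPJ lists were identical in every byte and were used as 1 list, so the replicates could not be compared here, and the depth is unknown. The study describes its list as regions shared by several peak calls over both replicates. The list gives positions only, with no height, and the cell type could not be checked against expression of pericyte markers. Intervals given below cover counting error only.

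RBPJ is the DNA-binding factor of Notch signalling. It recruits co-repressors in the absence of Notch activity and joins the cleaved Notch intracellular domain to activate genes. TGF-beta ligands are secreted in a latent form that LTBP proteins tether to the matrix, and once released they assemble type II and type I receptor kinases, with betaglycan (Tgfbr3) and endoglin (Eng) as co-receptors. In vessels this pathway takes part in the contact between pericytes and endothelium and in matrix deposition.

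RBPJ peaks were found at 9 of the 10 genes, while 46.7% of all protein-coding genes had a peak by the same rule. Ltbp2 had none. Tgfbr3 had the most peaks (7), followed by Tgfbr2 (6), Tgfb2 and Eng (5 each), Ltbp1 (3), Tgfb3 (2) and Tgfb1, Tgfbr1 and Ltbp3 (1 each). A peak centred within 1 kb of a TSS of the gene was found at 4 of the 10, namely Tgfb2, Tgfbr2, Tgfbr3 and Ltbp3, beside 27.6% of all genes. The same 4 genes had a peak in the basal domain, from 5 kb upstream to 1 kb downstream of the TSS, as did 27.1% of all genes. In the gene body a peak was present at 6 of the 10 genes, beside 25.2% of all. The median length of gene body plus domain was 257 kb for the 10 genes against 93.7 kb over all genes, with Ltbp3 (34.5 kb), Tgfb1 (36.3 kb) and Eng (80.4 kb) below the latter, and the part of this length in the counts was not tested.

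**Figure D1:**
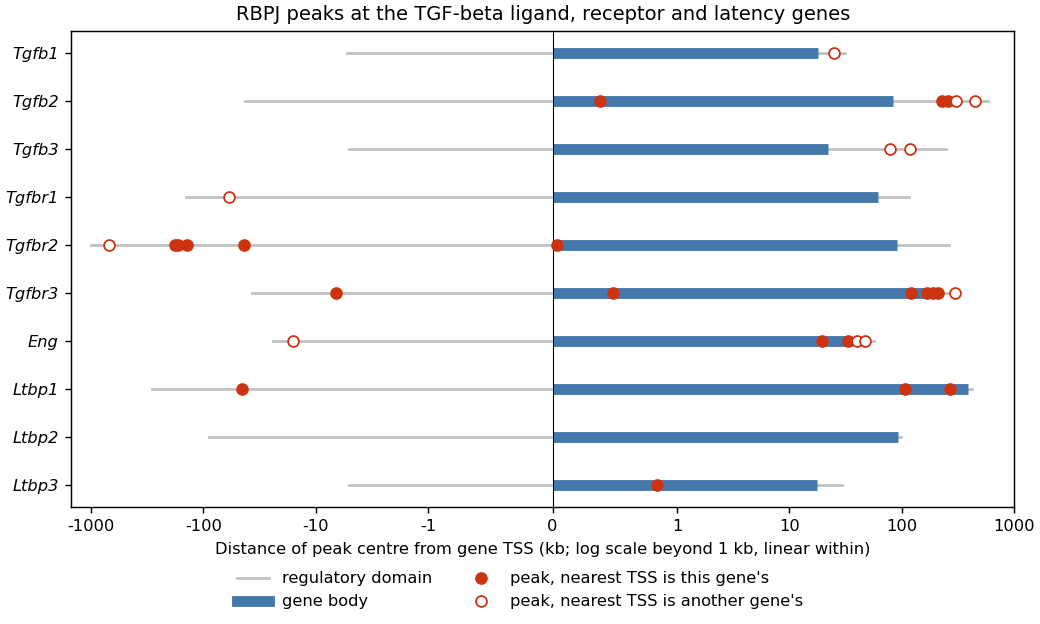
Each row is 1 gene drawn from its TSS at 0, with the distance of each RBPJ peak centre in kb on an axis that is linear within 1 kb and logarithmic beyond. Filled circles are the 20 peaks whose nearest protein-coding TSS is that gene's, open circles the 11 nearer to another gene, the thick bar is the gene body and the thin line its regulatory domain; only Tgfb2, Tgfbr2, Tgfbr3 and Ltbp3 have a circle within 1 kb of 0, and Ltbp2 has none.

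The sequences shown are those of the 8 peaks that held the core RBPJ motif TGGGAA, read on either strand, within their central 200 bp. Whether these sites are the bound ones was not tested. These 8 peaks lay at Tgfb1, Tgfb2, Tgfbr2 (2 peaks), Tgfbr3 (2 peaks) and Ltbp1 (2 peaks). For 7 of them the central bases are shown, from the forward strand of GRCm38.p6, with TGGGAA and its complement TTCCCA in capitals.
Tgfb2, chr1:186478617-186478807: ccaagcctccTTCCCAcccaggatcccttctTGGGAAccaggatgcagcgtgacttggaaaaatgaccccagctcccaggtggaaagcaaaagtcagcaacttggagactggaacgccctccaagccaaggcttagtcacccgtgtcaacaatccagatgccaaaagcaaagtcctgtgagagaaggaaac
Tgfbr2, chr9:116343278-116343477: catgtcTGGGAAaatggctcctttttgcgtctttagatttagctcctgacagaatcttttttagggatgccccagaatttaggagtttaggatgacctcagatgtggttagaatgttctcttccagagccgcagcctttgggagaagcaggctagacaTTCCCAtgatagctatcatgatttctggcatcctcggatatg
Tgfbr2, chr9:116218752-116218951: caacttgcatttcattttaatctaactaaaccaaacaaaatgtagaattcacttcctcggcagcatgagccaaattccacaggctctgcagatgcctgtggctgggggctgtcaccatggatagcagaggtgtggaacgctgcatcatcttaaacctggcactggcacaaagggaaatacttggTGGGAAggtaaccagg
Tgfbr3, chr5:107167310-107167509: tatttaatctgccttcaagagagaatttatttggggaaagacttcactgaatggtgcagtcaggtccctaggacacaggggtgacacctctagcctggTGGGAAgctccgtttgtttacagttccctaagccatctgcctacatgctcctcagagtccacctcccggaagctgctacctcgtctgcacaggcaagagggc
Tgfbr3, chr5:107079667-107079866: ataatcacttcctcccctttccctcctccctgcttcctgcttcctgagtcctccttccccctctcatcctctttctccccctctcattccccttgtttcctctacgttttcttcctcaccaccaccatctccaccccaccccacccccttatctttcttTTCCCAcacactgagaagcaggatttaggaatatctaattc
Ltbp1, chr17:74960593-74960792: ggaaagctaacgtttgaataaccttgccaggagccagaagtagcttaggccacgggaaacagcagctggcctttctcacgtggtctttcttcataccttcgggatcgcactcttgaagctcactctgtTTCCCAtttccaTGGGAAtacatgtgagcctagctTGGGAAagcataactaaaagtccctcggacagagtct
Ltbp1, chr17:75277646-75277845: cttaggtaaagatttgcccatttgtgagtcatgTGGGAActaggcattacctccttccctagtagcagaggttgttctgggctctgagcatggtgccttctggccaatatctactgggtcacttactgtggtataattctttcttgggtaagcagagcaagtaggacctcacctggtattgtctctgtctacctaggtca
The peak counted for Tgfb1 is the eighth. It lies in an untranslated region of Ccdc97, and only the 27 bases that span its pair of motifs are shown, because they face each other across 15 bp.
Tgfb1, chr7:25711832-25711858: TGGGAAggtagggcgtctgggTTCCCA
No other peak of the 31 held TGGGAA followed by TTCCCA at a gap of 11 to 21 bp, and over all 11094 peaks 294 (2.65%) held such a pair. The Tgfbr1 peak is shown for the opposite arrangement, with 2 motifs in the same direction that directly follow each other.
Tgfbr1, chr4:47294236-47294255: cccgTGGGAATGGGAAtgct

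Among the ligands, Tgfb2 was the only gene with a peak at its promoter. It had 5 peaks on chromosome 1 in 626 kb, or 7.99 per Mb, while chromosome 1 as a whole had 4.87. The promoter peak (chr1:186705187-186706029, 843 bp) was centred 381 bp downstream of the gene's first TSS and 92 bp from the nearest of its 2 TSSs, in the untranslated part of exon 1. The start of the antisense transcript Gm29491 was 87 bp from the same centre. Its 843 bp held no TGGGAA. The other 4 peaks lay past the 3' end of the gene, centred 227277, 261110, 304374 and 450257 bp downstream of the TSS and outside protein-coding genes. The first of these (chr1:186478617-186478807, 191 bp) held 2 TGGGAA sites, 1 of them preceded by G, and is the Tgfb2 sequence shown above. The next 2 (chr1:186444793-186444965, 173 bp, and chr1:186401480-186401751, 272 bp) held no site. The farthest peak (chr1:186254663-186256801) was also the widest of the gene at 2139 bp and held 3 sites away from its centre. It and the peak before it were nearer to the TSS of Lyplal1, by distances of 138422 and 284305 bp, than to Tgfb2.

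Tgfb1 and Tgfb3 had peaks only at a distance and closer to other genes. The single peak of Tgfb1 (chr7:25711657-25712052, 396 bp) was centred 24852 bp downstream of the TSS, past the 3' end of the gene and 7191 bp from the TSS of Ccdc97. It was GC rich, with 68% G and C in the central 200 bp, and these bases also held 3 CAGAC sites, the short SMAD element, and 1 TGANTCA site of AP-1. CAGAC was common, present in the central 200 bp of 36.7% and in the whole length of 76.3% of all peaks. The peak of 3638 bp at Eng and the peak of Ltbp3 held more CAGAC sites, 18 and 15. Both peaks of Tgfb3 lay in introns of the neighbouring gene Ttll5, at chr12:86000386-86000852 (467 bp) and chr12:85959486-85960596 (1111 bp), centred 78422 and 119000 bp downstream of the Tgfb3 TSS. Neither held TGGGAA, and the second held 8 CAGAC sites in its whole length. A narrower peak (chr12:86103782-86104005, 224 bp) lay nearer to Tgfb3, centred 24852 bp upstream of its TSS, but in an intron of Ift43 and 19852 bp outside the Tgfb3 domain, so it was not counted. The distance is equal to that at Tgfb1, which was checked against the positions.

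The kinase receptors differed in their number of peaks, with 6 at Tgfbr2 and 1 at Tgfbr1. Tgfbr2, the receptor that binds ligand and phosphorylates the type I receptor, had 6 peaks on chromosome 9 within 1265 kb, the longest region of the 10 genes, and its 4.74 peaks per Mb were below the 5.33 of the chromosome. One of them (chr9:116175104-116175537, 434 bp) sat on the promoter, centred 40 bp from the TSS in an untranslated region, and held no TGGGAA. Another 4 lay upstream outside protein-coding genes, and Tgfbr2 had the nearest TSS for each. They were centred 43491 bp (chr9:116218619-116219084, 466 bp), 139319 bp (chr9:116314109-116315249, 1141 bp), 168017 bp (chr9:116343206-116343548, 343 bp) and 177853 bp (chr9:116352913-116353513, 601 bp) before the TSS. Each of these 4 held a TGGGAA preceded by G, with 1, 5, 3 and 3 TGGGAA sites in the same order. The closest was also 49 bp from the start of the noncoding RNA Gm31410. The sixth peak (chr9:116871701-116873867, 2167 bp) was centred 697424 bp upstream in an intron of Rbms3, and held 4 sites, none of them in the central 200 bp.

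Tgfbr1, the type I receptor kinase, had 1 peak (chr4:47293657-47294355, 699 bp), centred 59216 bp upstream in an intron of Col15a1. The Col15a1 TSS was 5719 bp away. The peak held 4 TGGGAA sites, including the adjacent pair shown above, but none in its central 200 bp. No peak was found at any of the 4 TSSs of Tgfbr1. With this 1 peak, Tgfbr1 had 3.84 per Mb against 1.01 for chromosome 4.

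The co-receptors had the densest peaks among the genes with more than 3 peaks. Ltbp3 (29 per Mb) and Tgfb1 (27.5 per Mb), with 1 peak each in short regions, were also denser than Tgfbr3. At Tgfbr3, which encodes betaglycan, 7 peaks lay in 361 kb of chromosome 5, or 19.4 per Mb against 5.79 for the chromosome. Of all protein-coding genes, 164 (0.748%) had 7 or more peaks. Tgfbr3 is named here as the highest of the 10, and its region was longer than the median of 93.7 kb over all genes. The part of this length in its count was not tested. Elsewhere in the pathway, Smad3 had 9 peaks (21.8 per Mb), Tgif1 8, and Smad6 and Smad7 7 each. The promoter peak of Tgfbr3 (chr5:107288535-107289747, 1213 bp) was centred 488 bp downstream of the TSS in intron 1 and held no TGGGAA. A wider one (chr5:107295379-107296998, 1620 bp) was centred 6559 bp upstream and held 2 sites. Within the gene, a peak of 1664 bp in intron 4 (chr5:107166578-107168241) held 3 sites, 1 of them preceded by G and 1 bp from the peak centre, and a peak of 550 bp in intron 15 (chr5:107121025-107121574) held 1. Past the 3' end, peaks were centred 191993 bp (chr5:107096932-107098340, 1409 bp), 209863 bp (chr5:107079281-107080252, 972 bp) and 298301 bp (chr5:106990777-106991879, 1103 bp) downstream of the TSS, with 2, 1 and 1 sites. All but the last had a Tgfbr3 TSS as the nearest, counting the second of its 2 TSSs, and the last was 26767 bp from the TSS of Cdc7. Tgfbr3 thus had peaks before the gene, at its promoter, in its introns and beyond it, and 6 of the 7 peaks held TGGGAA.

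Eng, the co-receptor endoglin, had 5 peaks in 80.4 kb of chromosome 2, which gave the highest density of the 10 genes at 62.2 per Mb against 5.58 for the chromosome. Its neighbours share this short region. The widest peak (chr2:32628891-32632528, 3638 bp) was centred 15886 bp upstream of the Eng TSS but 1205 bp from that of Ak1, in an Ak1 intron, and it held 3 TGGGAA sites, 2 of them preceded by G. These were the only TGGGAA sites at Eng. Inside the gene, intron 2 held a peak of 177 bp (chr2:32666024-32666200) and intron 12 a peak of 1213 bp (chr2:32679112-32680324). Beyond the 3' end, a peak of 1165 bp (chr2:32685706-32686870) lay in an intron of Fpgs and a peak of 515 bp (chr2:32693897-32694411) was centred 31 bp from the Fpgs TSS. None of the 5 was within 1 kb of any of the 3 Eng TSSs.

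Of the LTBP family, Ltbp3 had a peak at its promoter and Ltbp1 had peaks at a distance, while no peak was listed for Ltbp2. The Ltbp3 peak (chr19:5739563-5743927) was the widest of the 31 at 4365 bp. It covered the TSS and was centred 841 bp downstream of it, in an untranslated part of exon 2. It held 6 TGGGAA sites, 2 of them preceded by G, and none within its central 200 bp. Ltbp1, which binds the latent complex and anchors it in the matrix, had 3 peaks on chromosome 17 in 712 kb, or 4.21 per Mb against 5.88 for the chromosome. They lay 44876 bp upstream (chr17:74960549-74960836, 288 bp), in intron 3 (chr17:75110572-75113171, 2600 bp) and in intron 13 (chr17:75277570-75277921, 352 bp). Each held TGGGAA, with 3, 2 and 2 sites. The upstream peak had all 3 within its central 200 bp, none of them preceded by G. Ltbp2, a family member that does not bind latent TGF-beta, lies on chromosome 12, where 54.7% of genes had a peak. The nearest peak to it (chr12:84772863-84773396) was centred 103403 bp downstream of its TSS and 5024 bp outside its domain, at the TSS of Npc2.

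**Figure D2:**
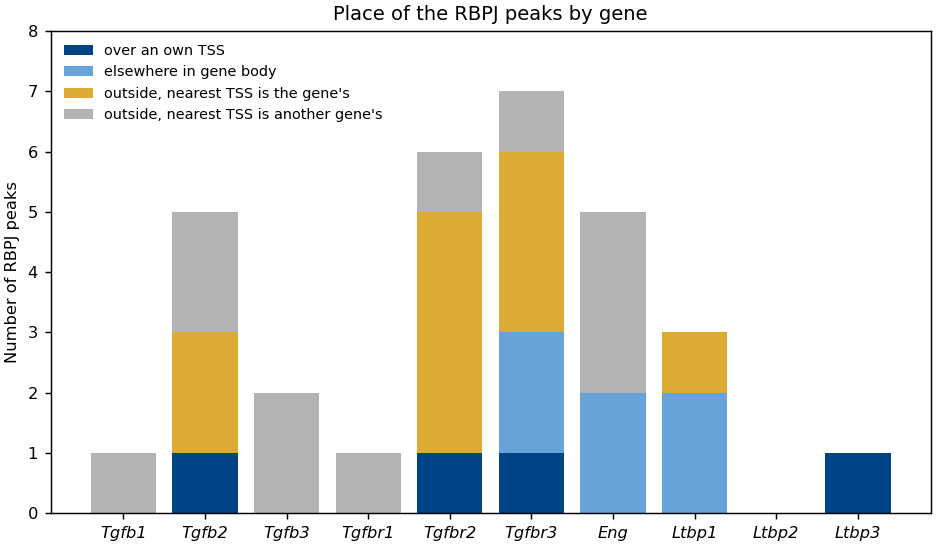
Bars give the number of RBPJ peaks per gene from 0, divided by place. Over all 10 genes, 4 peaks lay over an own TSS, 6 elsewhere in the gene body, 10 outside the body with the gene's own TSS as the nearest, and 11 outside with another gene's TSS nearer; Eng has 3 peaks of the last kind, Tgfb2 and Tgfb3 have 2 each.

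The rule decided several of these assignments by small distances. Just outside it, peaks were centred 960 bp beyond the Ltbp1 domain (11 bp from a TSS of Ttc27) and 4720 bp beyond that of Tgfb3 (121 bp from a TSS of Ttll5). Both sat at the promoter of the neighbouring gene. Among the 31 counted peaks, 20 were nearest to a TSS of their own gene and 11 to that of another. With the own gene as the nearest required, 6 of the 10 genes kept a peak, beside 34.9% of all genes under that rule, and Tgfb1, Tgfb3 and Tgfbr1 lost theirs. Only 8 of the 31 lay in no other gene's domain. No peak was counted for more than 1 of the 10 genes.

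Chromosomes 4 and 7 held far fewer peaks per Mb than the other autosomes, which touches Tgfbr1 and Tgfb1. Peaks were also sparse on X (0.842 per Mb) and Y (0.0327 per Mb), where none of the 10 genes lies. Chromosome 4 had 1.01 and chromosome 7 had 1 peak per Mb, against 3.18 to 7.45 on the other 17 autosomes, and 14.7% and 10.7% of their genes had a peak against 55.3%. The peak at Tgfb1 was the only one between chr7:24601305 and chr7:27231714, and the peak at Tgfbr1 the only one between chr4:45493067 and chr4:53437476. Among the 8 genes on other chromosomes, 7 had a peak and 4 had a TSS peak. Those shares of 87.5% and 50% stand beside 55.3% and 33.4% of all genes on the 17 autosomes. The part of the uneven spread over chromosomes in the low counts at Tgfb1 and Tgfbr1 was not tested.

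The 31 peaks were mostly far from promoters. The centre was within 1 kb of a TSS of any protein-coding gene in 5 of 31, or 16.1% (95% exact binomial interval 5.45 to 33.7%), against 49.5% of all 11094 peaks. The 5 were the promoter peaks of Tgfb2, Tgfbr2, Tgfbr3 and Ltbp3 and the Eng peak at the Fpgs TSS. More than 50 kb from any TSS lay 10 of 31, or 32.3% (16.7 to 51.4%), against 15.6% of all. The median distance to a TSS was 32411 bp for the 31 peaks and 1074 bp for all. By annotation, 13 centres lay in introns, 13 outside protein-coding genes and 5 in untranslated regions. Of the 31, 9 lay upstream and 22 downstream of the TSS of their gene. In width they were close to the whole list, with a median of 843 bp against 690 bp, and 64.5% against 63.7% reached 500 bp. Among peaks more than 1 kb from a TSS, the median width was 836 bp here against 523 bp. Long regions hold more distal sequence. The rule also ends each domain at the neighbouring basal domains, so peaks at neighbouring promoters tend to be left out of the 31. The share of all peaks counts every promoter peak, so the 2 are not like for like. Other gene lists taken by the same rule, described below, had proximal shares of 0 to 33.3%. The parts of region length and of the rule in the distal share were not tested.

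Promoters with and without a peak were also compared by CpG content. Over all protein-coding genes, 47.5% of those with a CpG ratio (observed over expected CpG, 1 kb around the TSS) of at least 0.6 had a TSS peak, against 10.6% below it. Without chromosomes 4, 7, X and Y these shares were 54.5% and 13.4%. Of the 7 genes here at or above 0.6, 2 had one, Tgfbr2 (0.762) and Tgfbr3 (0.736), and Tgfb1 (0.696), Tgfb3 (0.661), Tgfbr1 (0.859), Ltbp1 (0.767) and Ltbp2 (0.673) had none. Of the 3 below, 2 had one, Tgfb2 (0.54) and Ltbp3 (0.172), and Eng (0.396) had none. The Ltbp3 peak reached past this window into CpG-rich sequence, with a CpG ratio of 0.836 in its central 200 bp. Tgfb1 and Tgfbr1 lie on chromosomes 7 and 4, where 4.6% and 5.2% of genes had a TSS peak. With counts this small the 10 genes cannot be said to differ from the rest.

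For the promoters with a peak, the 250 bases before the TSS are shown from the RefSeq promoter table (GRCm38.p6), 5' to 3' on the strand of the gene, with TGGGAA or TTCCCA in capitals. The table held 8 of the 10 genes, without Tgfb3 and Tgfbr3. The Tgfb2 peak reached over 40 of these bases, the Tgfbr2 peak over 174 and the Ltbp3 peak over all 250.
Tgfb2, minus strand, chr1:186705990-186706239: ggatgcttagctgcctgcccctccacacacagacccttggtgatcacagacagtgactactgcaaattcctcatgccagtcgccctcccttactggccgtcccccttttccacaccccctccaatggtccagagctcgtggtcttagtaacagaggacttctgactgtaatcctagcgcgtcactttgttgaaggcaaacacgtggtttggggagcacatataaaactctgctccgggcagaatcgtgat
Tgfbr2, minus strand, chr9:116175364-116175613: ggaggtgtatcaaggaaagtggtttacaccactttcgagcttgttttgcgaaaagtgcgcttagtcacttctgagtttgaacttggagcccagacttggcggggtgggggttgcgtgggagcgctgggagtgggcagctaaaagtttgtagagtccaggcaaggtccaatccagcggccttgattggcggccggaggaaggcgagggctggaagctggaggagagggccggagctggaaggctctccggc
Ltbp3, plus strand, chr19:5740650-5740899: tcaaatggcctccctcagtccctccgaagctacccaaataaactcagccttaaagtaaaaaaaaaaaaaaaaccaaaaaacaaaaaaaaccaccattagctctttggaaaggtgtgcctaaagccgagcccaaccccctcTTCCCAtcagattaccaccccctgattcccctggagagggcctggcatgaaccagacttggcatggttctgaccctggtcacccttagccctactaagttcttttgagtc
Ltbp3 alone of these 3 held TGGGAA, on the opposite strand, while 21.6% of the 32851 promoters in the table held it in the same 250 bases.

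Motif content was then compared with the whole list. Of the 31 peaks, 8 held TGGGAA in the central 200 bp, a share of 25.8% (11.9 to 44.6%), and the share over all peaks was also 25.8%. It was found in 0 of the 5 peaks within 1 kb of a TSS, with an interval up to 52.2%, against 16.2% of all such peaks. Of the 26 distal peaks, 8 (30.8%) had it against 35.2%. The longer form GTGGGAA, which contains TGGGAA, was present in 6 of 31, or 19.4% (7.45 to 37.5%), against 9.28% of all, at Tgfb1, Tgfb2, Tgfbr2, Tgfbr3 (2 peaks) and Ltbp1. The interval includes the share of all peaks, so no difference was detectable with 31 peaks. In whole peaks TGGGAA was found in 20 of 31 (64.5%, against 64.9%) and GTGGGAA in 15 of 31 (48.4%, interval 30.2 to 66.9%, against 29.3%), and the lower end of the latter interval is just above the share of all peaks. The intervals were not adjusted for the number of motifs. They treat the 31 peaks as independent, although these come from 9 genes, with 7 at Tgfbr3 and 6 at Tgfbr2. For whole peaks the share was not set against distal peaks alone. All 53 TGGGAA sites gave 1.55 per kb of peak against 1.25 over the whole list, and the 17 GTGGGAA sites 0.496 against 0.331. A peak with GTGGGAA was present at 8 of the 10 genes (all with a peak but Tgfb3), beside 19.3% of all genes and 41.3% of all genes with a peak. The median number of peaks was 2.5 at the 10 genes and 0 over all genes, and the part of this in the count was not tested.

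**Figure D3:**
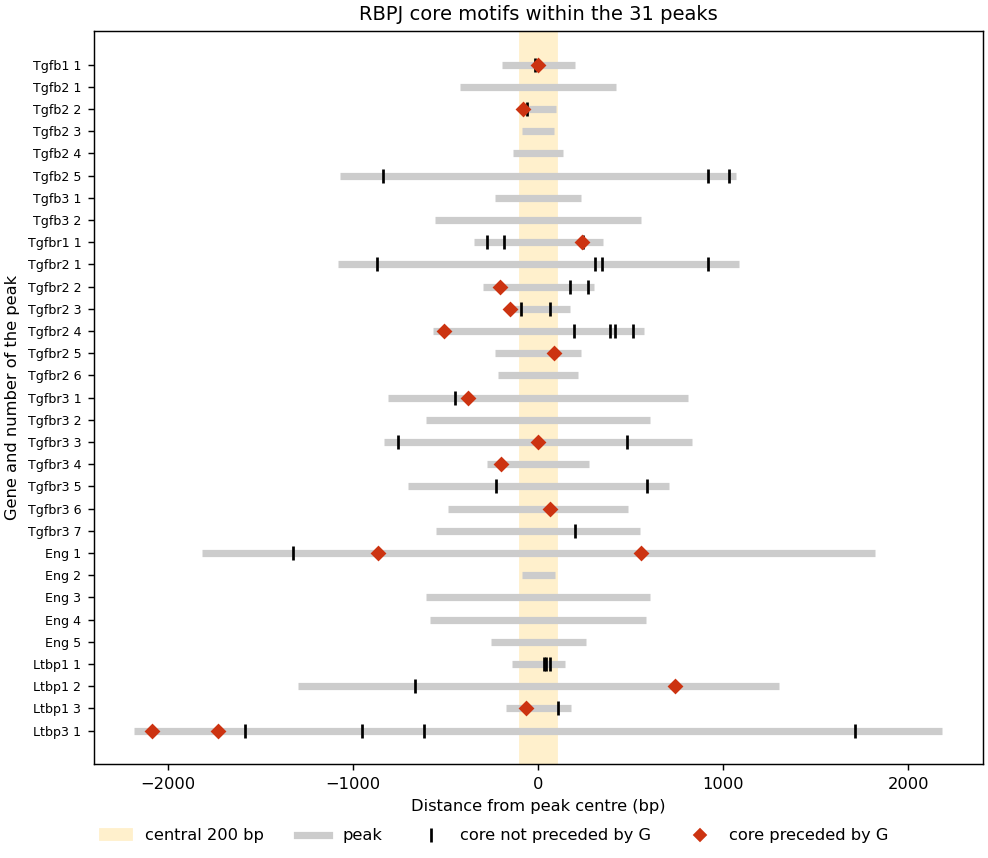
Each grey bar is 1 of the 31 peaks, drawn to its width in bp around its centre, with peaks of a gene numbered from upstream to downstream. Ticks are TGGGAA sites not preceded by G, diamonds the 17 sites preceded by G, and the shaded band the central 200 bp; the promoter peaks Tgfb2 1, Tgfbr2 6 and Tgfbr3 2 carry no site, and Tgfb1 1 and Tgfbr3 3 have a diamond at the centre.

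Central motifs were more frequent in narrow peaks, both here and over the whole list. Of the 11 peaks under 500 bp wide, 6 (54.5%) held a central TGGGAA, against 41.1% of all such peaks, and of the 20 wider ones 2 (10%), both at Tgfbr3, against 17.1%. Of the 8 peaks with a central motif, 7 had a TSS of their own gene as the nearest, against 13 of the other 23.

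Elements of other transcription factors were counted on both strands in the same central 200 bp. CAGAC (SMAD) was present in 38.7% of the 31 peaks against 36.7% of all, TGANTCA (AP-1) in 19.4% against 10.4%, TGTGGT (RUNX) in 19.4% against 12.1%, and GGAATG (TEAD) in 9.68% against 11.9%. The variant core TGAGAA was present in 22.6% against 14.4%, and CCAAT (NF-Y) in 25.8% against 19.8%. GGGCGG (SP), an element of CpG-rich promoters, was present in 9.68% (2.04 to 25.8%) against 30.4%, the only one of these shares whose interval left out that of all peaks. Since 26 of the 31 peaks were more than 1 kb from a TSS, the shares were also set against those of all such distal peaks. SP then stood at 3.85% against 9.12%, with an interval of 0.0973 to 19.6% that includes it. In the same comparison AP-1 stood at 19.2% against 17.8%, RUNX at 23.1% against 17.4%, TGAGAA at 23.1% against 20.3% and GTGGGAA at 23.1% (8.97 to 43.6%) against 12.9%. The median GC content of the central 200 bp was 51% in the 31 peaks and 55.5% in all. In distal peaks alone it was 49.8% against 49.5%.

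**Figure D4:**
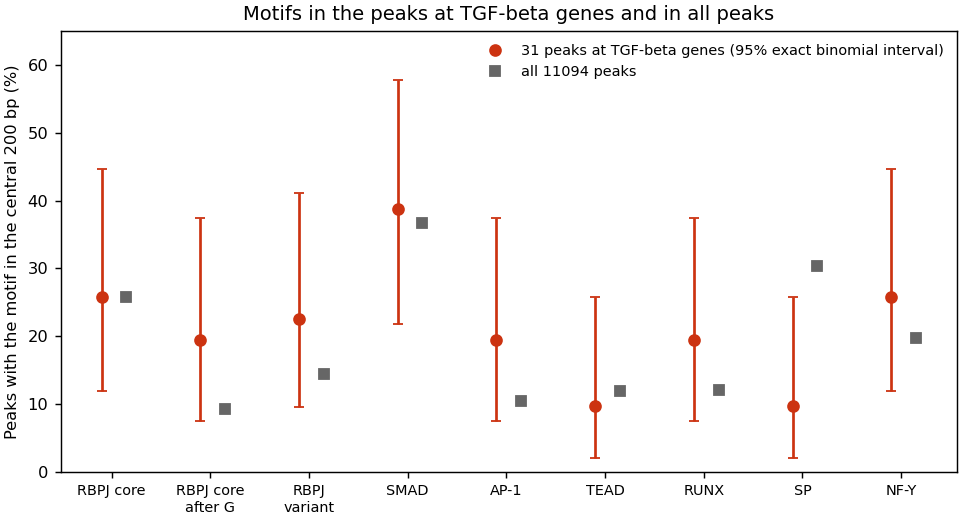
The share of peaks with each motif in the central 200 bp is given in percent for the 31 peaks at TGF-beta genes (circles, bars are 95% exact binomial intervals) and for all 11094 peaks (squares). The square lies inside the bar for every motif but SP, where 9.68% of the 31 peaks and 30.4% of all peaks held it.

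The rest of the pathway was examined with the same rule in 32 further genes, of which 26 had a peak and 14 a TSS peak (46.7% and 27.6% of all genes). Their domains held 79 distinct peaks. Smads and Smad regulators, the intracellular arm, had a peak at 12 of 13 genes and a TSS peak at 9, which were the receptor-regulated Smad2 and Smad3, their partner Smad4, the inhibitory Smad6 and Smad7, the ubiquitin ligase Smurf2, the co-repressors Skil and Tgif1, and Pmepa1, which sequesters Smads. Zfyve9, which brings Smads to the receptor, had none. Among 6 receptor partners, 5 had a peak and 4 a TSS peak, the latter being Tgfbrap1, Cd109, the decoy receptor Bambi and the adaptor Dab2, and Fkbp1a had none. The Dab2 peak lay at another of its 11 TSSs than the first, outside the basal domain. By basal domain 3 of the 6 had a peak. Of 7 genes that act in ligand activation, 5 had a peak, Itgav at a TSS, while the integrin subunit Itgb8 and the protease Mmp9 had none. The 6 further genes of latency and storage had peaks at 4 and TSS peaks at 0, with none for Ltbp4 and Nrros. Ltbp4 lies on chromosome 7 and Zfyve9 on chromosome 4.

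A TSS peak was thus present at 40% of the 10 ligand, receptor and latency genes, 0% of the other latency and storage genes, 14.3% of the ligand activation genes, 66.7% of the receptor partners and 69.2% of the Smads and regulators, beside 27.6% of all genes. All 13 Smads and regulators had a promoter CpG ratio of at least 0.6 (0.735 to 1.05), the class in which 47.5% of all genes had a TSS peak. The share of peaks centred within 1 kb of any TSS was 16.1% at the 10 genes, 23.3% (11.8 to 38.6%) for the 43 peaks of the Smads and regulators and 13% (2.78 to 33.6%) for the 23 peaks of 6 Notch target genes, and these intervals overlap. Of those Notch targets (Hes1, Hes5, Hey1, Hey2, Heyl and Nrarp), 5 had a peak, and Hey1, Hey2 and Nrarp had one centred within 1 kb of a TSS. A peak of 7702 bp (chr16:30063218-30070919) covered the Hes1 TSS, but its centre lay 2684 bp downstream, so it was not counted as a TSS peak. Heyl, on chromosome 4, had none.

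**Figure D5:**
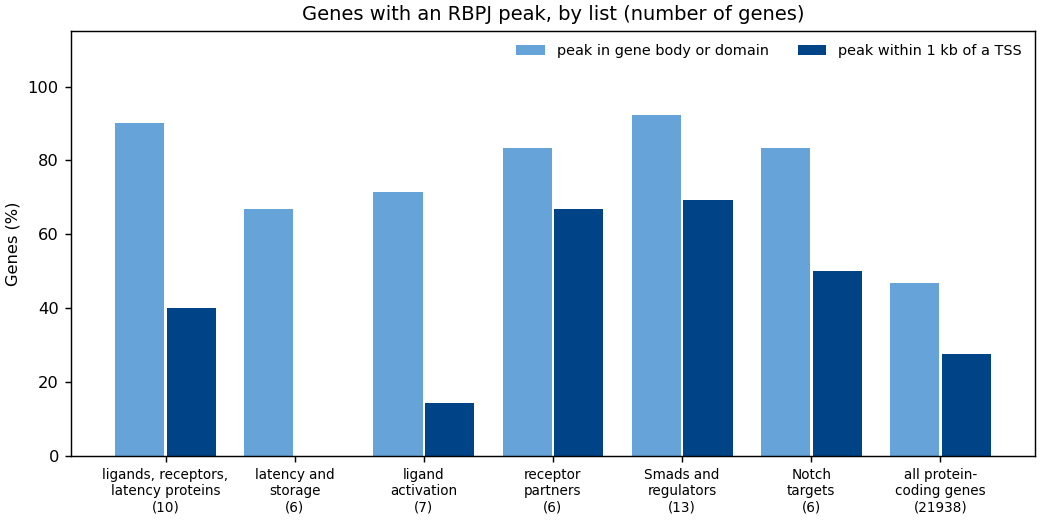
Bars from 0 give the percent of genes in each list with an RBPJ peak in the gene body or domain (light) and within 1 kb of a TSS (dark), with the number of genes in brackets. The 10 ligand, receptor and latency genes stand at 90% and 40%, the Smads and regulators at 92.3% and 69.2%, and all 21938 protein-coding genes at 46.7% and 27.6%.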

How the data were processed

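RBPJ ChIP-seq peaks of RD1 cells were analysed. As described in the study, the authors mapped reads with bowtie to GRCm38, removed duplicates, called peaks with MACS2 and PeakRanger, merged neighbouring calls, and kept regions that several calls over both methods and replicates shared, outside blacklisted regions. Each deposited interval is a start and an end in bp, without a score. Merging widens intervals, so the centre need not be the bound site. Starts were counted from 1, and 0 peaks ran past a chromosome end. Genes, exons and 54409 TSSs were those of protein-coding transcripts in GENCODE release M21, and sequences came from GRCm38.p6 and RefSeq. Members and lists were chosen with earlier results of these data known. All 10 members are described in full, and of the other lists, genes with a TSS peak or with no peak are named. No tests between groups were made, and shares have exact (Clopper-Pearson) 95% intervals. The rule and motif search were tested on simulated data. Python 3.11.15, numpy 2.4.6, scipy 1.17.1, pysam 0.24.0 and matplotlib 3.10.9 were used. A result at a neighbouring gene is not reported here.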

Additional observations from a re-analysis of the deposited data

How the results depend on the processing

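The number of genes with a peak (9) was 9 with any overlap, the domain alone or extension to 100 kb (43.3% of all genes), 8 with peaks of at least 500 bp (34.9% of all genes) and 6 in the gene body, but 4 with basal domains alone. The number of peaks (31) moved to 4 with basal domains, 10 in gene bodies, 19 with extension to 100 kb and 20 with peaks of at least 500 bp. The alternatives requiring the gene's own TSS as the nearest (20 peaks) and leaving out chromosomes 4 and 7 (29 peaks, 7 genes) were chosen after seeing the data. Genes with a TSS peak numbered 3 within 500 bp (23.7% of all genes), 4 within 5 kb (31.9%) and 4 with gene 5' ends only (24.9%). The proximal share ran from 12.9 to 20%. The TGGGAA share of 25.8% moved to 9.68% in the central 100 bp, a shorter window for which no share of all peaks is given. It was 64.5% in whole peaks (64.9% of all peaks) and 10% in peaks of at least 500 bp (17.1% of all such peaks). Without RBPJ replicate 1 or without RBPJ replicate 2, the values were 9 genes and 31 peaks, since both files hold the same list. No paired analysis was possible because both files are 1 list and no result compares groups. The list has no heights or read counts, so weak and strong sites count alike, and a gene without a peak may have binding under the calling threshold.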
